A study of Homo sapiens with 6 samples.

Results

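The histone genes were followed in RNA sequencing of an isogenic pair of human esophageal squamous cell carcinoma cell lines. Members were chosen by gene symbol, under a rule set with earlier results of these data known. They are the genes of the 4 histone clusters (symbols beginning HIST1 to HIST4, followed by the family H1, H2A, H2B, H3 or H4) and 8 histone genes elsewhere in the genome, H1F0, H1FX, H2AFX, H2AFZ, H2AFV, H2AFY, H3F3A and H3F3B. Symbols of 97 rows met the pattern, 6 were dropped as pseudogene symbols, and 91 of the 58884 rows of the deposited matrix remained. The gencode v44 annotation lists 79 of these as protein coding, 71 in the clusters and 8 outside them, and 12 as pseudogenes. The label was borne out by sequence: 70 of the 71 coding cluster genes hold the histone 3′ stem-loop described below.

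KYSE450 is an established squamous carcinoma line with wild-type NRF2, and KEAP1null-KYSE450 was made from it by CRISPR-Cas9 editing of KEAP1, the adaptor through which NRF2 is ubiquitinated and degraded. There were 3 libraries of each line, from untreated cells grown in RPMI1640 with fetal bovine serum. The edited line is monoclonal, so the edit and any other difference of that clone cannot be told apart. The labels call the libraries replicates without saying that they came from separate cultures, so the p-values measure the spread between these libraries, which may be technical. The deposited columns name the line but no replicate, and the libraries are numbered here in column order. KEAP1 mRNA itself did not separate the lines, with a log2 fold change of -0.017 (standard error, SE, 0.096; adjusted p = 0.90 by limma with Benjamini-Hochberg adjustment, as for every adjusted p below), and a count cannot tell an edited transcript from an intact one. The deposited values are normalized counts, that is, reads per gene divided by a size factor of the library. They sum to between 54829313 and 57380170 per library. A floor of 3 reads corresponds to between 2.77 and 3.21 normalized counts and covers counting error only. All 7 squamous epithelial markers listed were measured in both lines, but their levels differed widely: 2 were higher and 5 lower in KEAP1null-KYSE450 by adjusted p alone. The basal keratin KRT5 rose by 1.46 on the log2 scale, while KRT14, KRT17 and KRT6A fell, with log2 fold changes of -6.09, -4.85 and -4.70. The summed level of the 7, which KRT5 dominates, was 326873 to 440578 normalized counts in KYSE450 and 555787 to 693925 in KEAP1null-KYSE450. Of the 8 markers of other cell types, PECAM1 was listed at 0 in all 6 libraries, COL1A2, PDGFRB, PTPRC, CD3E and CD68 stayed at or below 12.9, VWF did not pass the test and COL1A1 fell by 0.85 on the log2 scale (adjusted p = 0.00074). The summed level of these 8 was 644 to 888 in KYSE450 and 388 to 500.4 in KEAP1null-KYSE450. These shifts of marker genes move with the histone results given below, and their part in them was not tested. Cells are measured in bulk, so fewer cells of a kind and less RNA per cell cannot be told apart.

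Histones package DNA: a pair each of H2A, H2B, H3 and H4 forms the nucleosome core, and H1 binds the linker DNA between cores. The cluster genes are mostly transcribed in S phase, when new DNA has to be packaged. Their mRNAs have no introns and normally no poly(A) tail, and end instead just after a conserved stem-loop that is bound by the stem-loop binding protein SLBP and cut with the help of the U7 small nuclear RNP. The genes outside the clusters mostly encode replacement variants that are made throughout the cell cycle from ordinary polyadenylated mRNAs. Some cluster genes can also use a poly(A) site further downstream, and such polyadenylated histone mRNAs are known from cells that differentiate or leave the cycle.

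The stem-loop is shown because it separates the cluster genes from nearly all other genes, and because the mRNAs measured here differ in whether they are annotated to end at it. A search within 120 bases after the stop codon found it in 71 of 19924 protein-coding genes of gencode v44 (0.356%), and all 71 were histone genes, 70 in the clusters plus H2AFX. HIST1H2AK was the only coding cluster gene without a match. The stem and loop are in capitals with 5 flanking bases on each side, read 5′ to 3′ on the gene's strand in hg38.
HIST1H2BK (chr6:27146366-27146381, minus strand): ccaaaGGCTCTTTTAAGAGCCactta
HIST1H2AC (chr6:26124669-26124684, plus strand): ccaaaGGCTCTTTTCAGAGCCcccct
HIST3H2A (chr1:228457369-228457384, minus strand): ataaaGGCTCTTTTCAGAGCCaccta
HIST1H1D (chr6:26234217-26234232, minus strand): taaacGGCTCTTTTCAGAGCCaccca
HIST1H3J (chr6:27890320-27890335, minus strand): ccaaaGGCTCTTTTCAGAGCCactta
HIST1H4H (chr6:26285131-26285146, minus strand): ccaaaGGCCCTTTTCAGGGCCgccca
H2AFX (chr11:119094898-119094913, minus strand): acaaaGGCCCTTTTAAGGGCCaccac
The stem-loops of HIST3H2A, which rose, and of HIST1H1D and HIST1H3J, which fell, have the same 16 letters. Stem-loop sequence was not compared with direction over the other tested genes.

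Cluster histone genes were on balance higher in KEAP1null-KYSE450 than in KYSE450 cells. Their summed level over all 71 coding genes was 6375, 6631 and 6679 normalized counts in KYSE450 and 11941, 13865 and 13006 in KEAP1null-KYSE450, a ratio of means of 1.97. The groups did not overlap, and the sums made up between 0.0112% and 0.0119% of all normalized counts in KYSE450 and between 0.0215% and 0.0253% in KEAP1null-KYSE450. The 5 genes HIST1H2AC, HIST1H2BK, HIST1H1C, HIST1H2AG and HIST1H2BD gave 53.9% of the summed counts in KYSE450 and 59.5% in KEAP1null-KYSE450. By family the ratio of means was 2.33 for H2A, 1.97 for H2B, 1.65 for H1, 1.61 for H3 and 1.51 for H4. The 8 genes outside the clusters had a summed level of 109480 ± 3938 normalized counts (SD, n = 3) in KYSE450 and 97420 ± 4898 (SD, n = 3) in KEAP1null-KYSE450, a ratio of 0.89.

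A gene was tested where its mean over the 6 libraries was at least 10, which 55 members reached: 45 coding cluster genes, the 8 genes outside and 2 pseudogenes. It was called where limma's adjusted p was under 0.05 and the log2 fold change was at least 1 in size. By this rule 10 histone genes were called higher and 6 lower, of 55. Over all 16701 genes tested, 12.2% were called higher and 5.98% lower. Histone genes called with a mean under 10 in 1 line were HIST3H2BB (3.05 in KYSE450, 29.1 in KEAP1null-KYSE450), HIST1H1D (20.9 and 2.49) and HIST1H3I (20.9 and 6.22). These passed the filter only through the line where they were higher. By adjusted p alone, 20 histone genes were higher and 8 lower, against 24.3% and 25.5% of all genes. All 10 genes called higher and 5 of the 6 called lower are cluster genes. Groups did not overlap for 24 of the 45 tested cluster genes and 4 of the 8 genes outside, beside 9645 of all 16701 genes tested. Where separate groups are named below, they are therefore no trait particular to histone genes. Quantile normalization changed the share of higher among all called genes from 67.2% to 52.4%, and called 8 histone genes higher and 8 lower. The median log2 fold change was 0.69 over the 45 tested cluster genes and 0.0041 over all genes tested. The same median was 0.68 when values were first summed over genes that encode the same protein.

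The calls differed with the number of counts of the gene. Of the 19 cluster genes with a mean between 100 and 2000 normalized counts, 18 had a log2 fold change above 0, 9 were called higher and 0 lower by limma, where 10.6% of all tested genes in that range were called higher. By adjusted p alone 15 of the 19 were higher; 0 were lower by unadjusted p under 0.05, edgeR or DESeq2. Of the 26 cluster genes with a mean between 10 and 100, 14 had a log2 fold change above 0 and 12 below; 1 was called higher and 5 lower, where 26.8% and 7.25% of all tested genes in that range were called. By adjusted p alone 3 of the 26 were higher and 5 lower, so the cluster genes with few counts had no common direction. Medians of the log2 fold change were 0.92 and 0.20 for cluster genes in the upper and the lower range, beside 0.021 and 0.54 for all tested genes there.

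**Figure D1:**
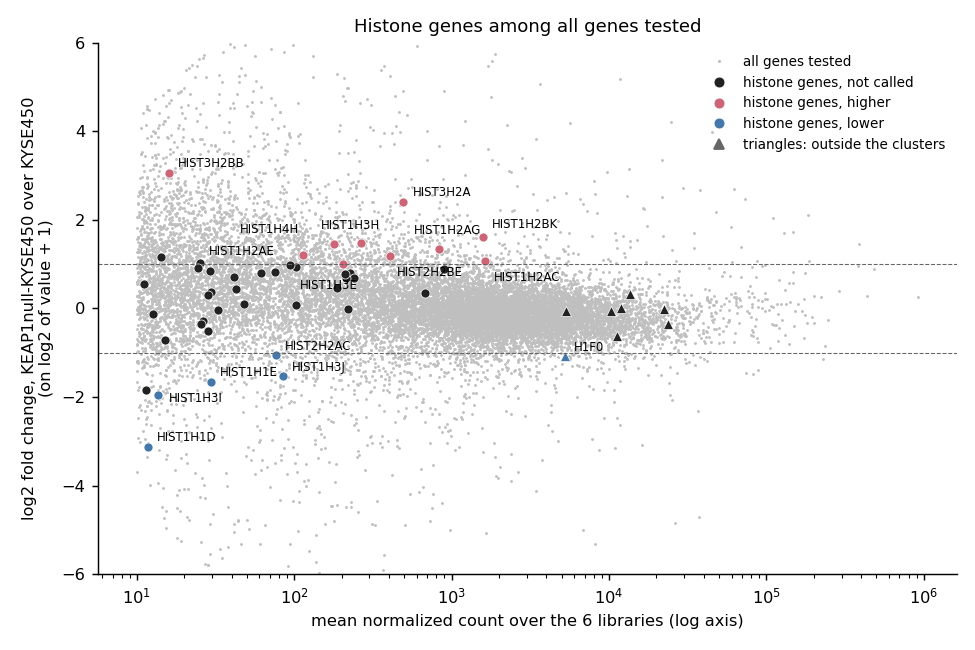
Log2 fold change of KEAP1null-KYSE450 over KYSE450 (vertical) against the mean normalized count over the 6 libraries (horizontal, log axis) for all 16701 genes tested in grey and the 53 tested coding histone genes in colour; 71 genes beyond 6 in size are not drawn, and dashed lines mark a log2 fold change of 1. The cluster genes called higher lie mostly between 100 and 2000 counts and those called lower under 100, while the genes outside the clusters, drawn as triangles, lie further right and between -1.07 and 0.33.

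H1 linker histones moved in both directions. HIST1H1C, which encodes a linker histone found in most cells, had normalized counts of 573, 635 and 692 in KYSE450 and 1183, 1168 and 1148 in KEAP1null-KYSE450. The groups did not overlap and the gene rose by 0.88 on the log2 scale (SE 0.12, adjusted p = 5.06e-05), short of the fold needed for a call. HIST1H1E had 54.5, 35.4 and 40.1 in KYSE450 and 5.54, 27.5 and 13.1 in KEAP1null-KYSE450, a log2 fold change of -1.66 (SE 0.51, adjusted p = 0.017). HIST1H1D had 25.7, 20.2 and 16.8 in KYSE450 against 6.46, 1.02 and 0 in KEAP1null-KYSE450, a log2 fold change of -3.13 (SE 0.80, adjusted p = 0.0059). Both fell, and neither had overlapping groups, but at these counts the fitted size depends on the pseudocount: HIST1H1D lay between -4.52 and -1.33 over the alternative settings. On the recovered reads of 4 libraries HIST1H1D was called by edgeR (adjusted p = 0.043) but not by DESeq2 (0.088), and HIST1H1E by neither (adjusted p = 0.10 and 0.12). HIST1H1E was also no longer called without KYSE450 library 1 (-1.49) or without KEAP1null-KYSE450 library 1 (-1.12). HIST1H1B, a linker histone of dividing cells, had 31.0, 25.3 and 29.8 against 31.4, 24.5 and 16.1 and did not pass the test. Together the 6 cluster H1 genes had 737 ± 43.8 normalized counts (SD, n = 3) in KYSE450 and 1212 ± 23.3 (SD, n = 3) in KEAP1null-KYSE450, most of them from HIST1H1C.

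H2A genes gave the highest family ratio. HIST3H2A, in the small cluster on chromosome 1 (chr1:228434777-228457873), had 153, 169 and 139 normalized counts in KYSE450 and 617, 994 and 888 in KEAP1null-KYSE450. It was 5.42-fold higher, with a log2 fold change of 2.41 (SE 0.18, adjusted p = 4.87e-07), and its groups lay far apart. HIST1H2AG had 429, 417 and 565 in KYSE450 and 1133, 1171 and 1270 in KEAP1null-KYSE450, a log2 fold change of 1.35 (SE 0.14, adjusted p = 6.72e-06). HIST1H2AE had 65.2, 65.7 and 69.9 against 126, 194 and 156, a log2 fold change of 1.21 (SE 0.23, adjusted p = 0.00079). Both rose without overlap of the groups. HIST1H2AC, the cluster H2A gene with the most counts, had 884, 1203 and 1044 in KYSE450 and 1805, 2587 and 2197 in KEAP1null-KYSE450. It was 2.10-fold higher (log2 fold change 1.07, SE 0.15, adjusted p = 7.59e-05) and fell just under the fold needed without KYSE450 library 1 (0.95) or KEAP1null-KYSE450 library 2 (0.94). HIST2H2AC went the other way, with 114, 80.9 and 115 in KYSE450 and 67.4, 47.9 and 35.3 in KEAP1null-KYSE450, a log2 fold change of -1.06 (SE 0.29, adjusted p = 0.0096). Its groups did not overlap, but the call was lost when KYSE450 library 1 (-0.97), KYSE450 library 3 (-0.97) or KEAP1null-KYSE450 library 3 (-0.83) was left out. It was also lost at a pseudocount of 10 (-0.93) and on the recovered reads of 4 libraries by edgeR (-0.95, adjusted p = 0.0497) and DESeq2 (-0.98, adjusted p = 0.065). HIST1H2AI, of which only 41.2% of windows of 100 bases are absent from other members, had 50.3, 91.0 and 69.9 against 120, 187 and 99.9 and rose by 0.92 on the log2 scale (adjusted p = 0.019), though reads may be split with its copies. Of 9 tested H2A genes, 5 were higher and 1 lower by adjusted p alone, beside 24.3% and 25.5% of all genes tested.

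H2B genes rose or did not pass the test by limma. By limma's adjusted p alone, 7 of 16 tested genes were higher and 0 lower, beside 24.3% and 25.5% of all genes tested. At an unadjusted p under 0.05, by edgeR and by DESeq2, 1 was lower. HIST1H2BK (chr6:27146361-27146855) had 796, 764 and 787 normalized counts in KYSE450 and 2382, 2458 and 2322 in KEAP1null-KYSE450. It was 3.05-fold higher (log2 fold change 1.61, SE 0.098, adjusted p = 5.65e-08), and its spread within each line was small beside the difference. HIST2H2BE had 302, 260 and 193 in KYSE450 and 542, 595 and 542 in KEAP1null-KYSE450, a log2 fold change of 1.17 (SE 0.17, adjusted p = 0.00012), which stood at 0.9954, just under the fold needed, without KYSE450 library 3. HIST3H2BB was near the floor in KYSE450, with 2.14, 6.07 and 0.93, and had 21.2, 37.7 and 28.2 in KEAP1null-KYSE450. Its log2 fold change of 3.07 (SE 0.64, adjusted p = 0.0016) ranged from 1.58 to 4.29 over the alternative settings. HIST1H2BD had 799, 580 and 447 in KYSE450 and 819, 721 and 714 in KEAP1null-KYSE450, so the groups overlapped, and it did not pass the test (log2 fold change 0.34, SE 0.18, adjusted p = 0.13). The 4 other H2B genes higher by adjusted p alone, HIST1H2BC, HIST1H2BG, HIST1H2BN and HIST2H2BF, rose by 0.68 to 0.81 on the log2 scale, each without overlap of the groups.

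The H3 cluster genes split. HIST1H3A to HIST1H3J all encode one and the same H3 protein in the reference, so their mRNAs add up to a single product. HIST1H3H had 137, 132 and 151 normalized counts in KYSE450 and 363, 409 and 402 in KEAP1null-KYSE450, a log2 fold change of 1.47 (SE 0.16, adjusted p = 1.05e-05). HIST1H3E had 154, 127 and 124 against 262, 281 and 273, a log2 fold change of 1.01 (SE 0.17, adjusted p = 0.00041). These rose without overlap, although HIST1H3E lies at the fold threshold and was under it without KYSE450 library 2 (0.97), KYSE450 library 3 (0.95) or KEAP1null-KYSE450 library 2 (0.99), at a pseudocount of 10 (0.97), with quantile normalization (0.78) and by DESeq2 (0.97). HIST1H3J had 98.4, 132 and 148 in KYSE450 and 36.0, 42.8 and 49.4 in KEAP1null-KYSE450, a log2 fold change of -1.53 (SE 0.26, adjusted p = 0.00041). Its groups did not overlap, and its row shares exonic bases with HIST1H2AM, which had at most 5.04 counts in any library. HIST1H3I had 26.7, 19.2 and 16.8 against 5.54, 1.02 and 12.1, a log2 fold change of -1.95 (SE 0.69, adjusted p = 0.033). It was no longer called when any of the KYSE450 libraries or KEAP1null-KYSE450 library 2 was left out, with values from -2.09 to -1.22, nor at a pseudocount of 10 (-0.97) or by DESeq2 (adjusted p = 0.061). HIST1H3G had 144, 160 and 158 in KYSE450 and 232, 249 and 315 in KEAP1null-KYSE450 and rose by 0.77 on the log2 scale (adjusted p = 0.0034), under the fold needed.

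As shares of the counts of these 10 H3 genes, not corrected for gene length, HIST1H3J gave 16.2%, 20.2% and 22.1% in KYSE450 and 3.75%, 4.05% and 4.49% in KEAP1null-KYSE450. HIST1H3H gave 22.5%, 20.2% and 22.5% in KYSE450 and 37.8%, 38.7% and 36.4% in KEAP1null-KYSE450. The makeup of the mRNA pool for this protein thus differed between the lines without overlap for both genes. The sum over the 10 genes went from a mean of 645 to 1039 normalized counts, a log2 fold change of 0.69 (SE 0.11, adjusted p = 0.00035 in a fit on summed values).

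H4 genes, of which 14 encode the same protein, showed the same kind of change in makeup. HIST1H4H had 97.3, 93.0 and 90.4 normalized counts in KYSE450 and 225, 306 and 255 in KEAP1null-KYSE450, a log2 fold change of 1.47 (SE 0.19, adjusted p = 4.84e-05). HIST1H4C, with 171, 220 and 261 against 137, 255 and 271, had overlapping groups and a log2 fold change of -0.020 (SE 0.26, adjusted p = 0.96), and its sign changed under several settings. HIST1H4C gave 40.3% ± 2.14 (SD, n = 3) of the H4 counts in KYSE450 and 26.7% ± 5.81 (SD, n = 3) in KEAP1null-KYSE450, while HIST1H4H went from 17.8% ± 3.60 (SD, n = 3) to 32.4% ± 2.24 (SD, n = 3). For neither gene did the shares, which are not corrected for gene length, overlap between the lines. HIST4H4, the single gene of its locus on chromosome 12, had 63.1, 52.6 and 73.7 in KYSE450 and 126, 152 and 98.9 in KEAP1null-KYSE450, and rose by 0.97 on the log2 scale (SE 0.25, adjusted p = 0.0062). Of 9 tested H4 genes 2 were higher by adjusted p alone (22.2%), near the 24.3% of all genes tested. By limma at an unadjusted p under 0.05, by edgeR or by DESeq2, 0 were lower.

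**Figure D2:**
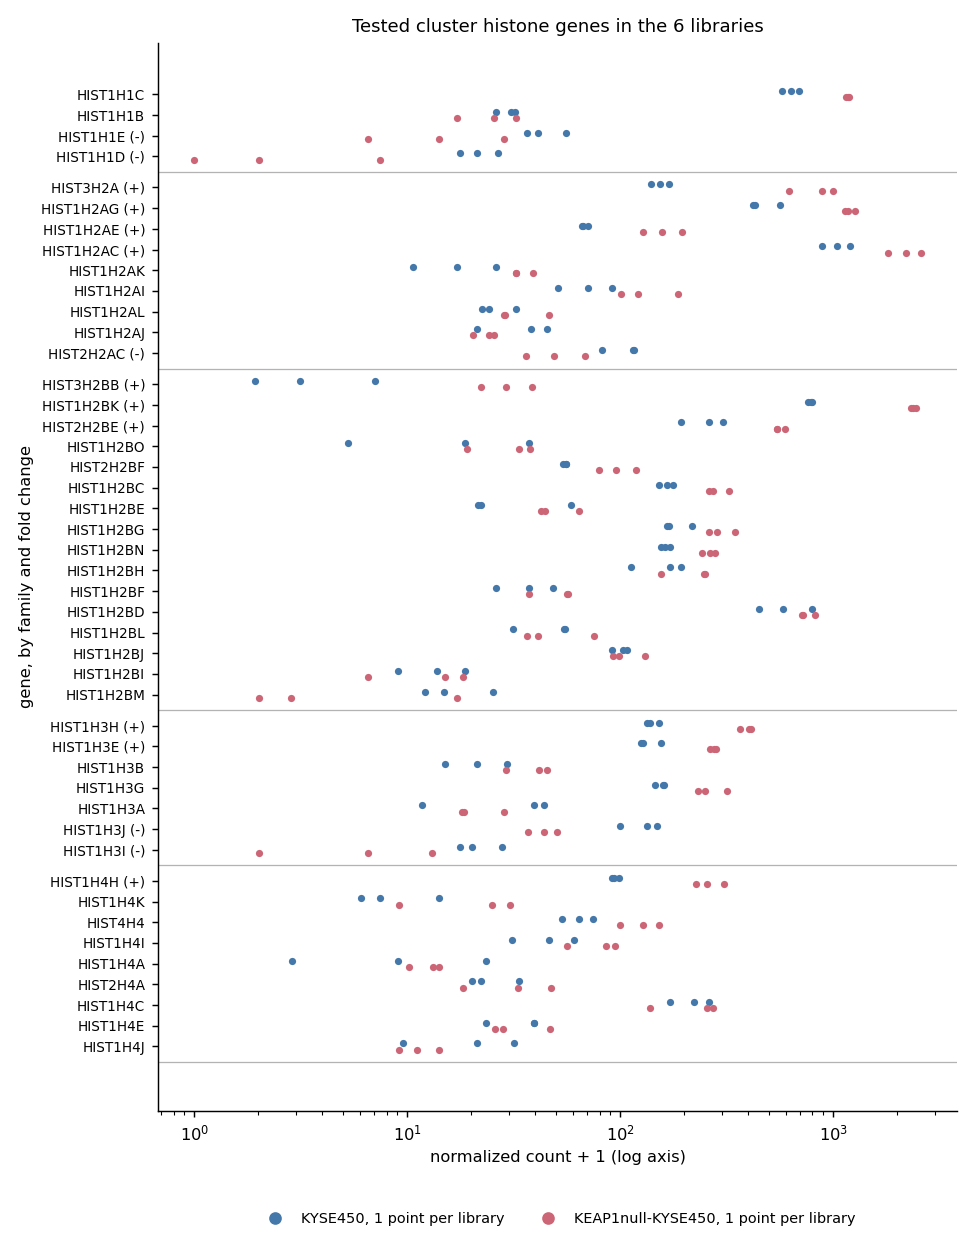
Normalized count plus 1 (horizontal, log axis) of the 45 tested cluster genes in each of the 3 KYSE450 (blue) and 3 KEAP1null-KYSE450 (red) libraries, grouped by family and ordered by fold change; plus and minus signs mark genes called higher and lower. The points of the lines stand apart for HIST1H2BK, HIST3H2A and HIST1H3H, and overlap for HIST1H4C, HIST1H2BD and most genes under 50.

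Cluster genes listed for polyadenylated mRNAs, or annotated with a longer transcript, stood on the higher side. Whether reads came from polyadenylated forms was not measured. The list was chosen with earlier results of these data known. It holds 8 genes known for polyadenylated mRNAs: HIST1H1C, HIST1H2AC, HIST1H2BC, HIST1H2BD, HIST1H2BJ, HIST1H2BK, HIST2H2BE and HIST1H4H. Of these 8 genes, 8 had a log2 fold change above 0, 4 were called higher and 0 lower, with a median of 0.98. By adjusted p alone 6 of the 8 were higher, as by edgeR and DESeq2, and 0 were lower at an unadjusted p under 0.05. Of all genes tested, 24.3% were higher by adjusted p alone. HIST1H2BJ, with 102, 91.0 and 106 against 97.8, 91.7 and 129, had overlapping groups, and its log2 fold change of 0.079 (adjusted p = 0.79) changed sign under 4 settings. The gencode v44 annotation gives 18 coding cluster genes a transcript that ends at least 200 bases past the stem-loop, a split made after the fold changes had been seen. Of these 18 genes 15 were tested; 15 had a log2 fold change above 0, 7 were called higher and 0 lower. Taking the list and the annotation together, 17 tested genes had a median of 0.97, with 8 called higher and 0 lower, and the remaining 28 had a median of 0.23, with 2 called higher and 5 lower. Of all genes tested, 12.2% were called higher and 5.98% lower. These shares were 26.8% and 7.25% at a mean of 10 to 100, and 10.6% and 7.05% at 100 to 2000. The 17 genes of the list or annotation also had more counts than the 28 with neither, with a median mean of 212 against 29.4 normalized counts. Some genes with neither had means of 100 to 2000 too. Of these, HIST1H2AG, HIST1H2AE, HIST1H2AI, HIST1H2BG and HIST1H3G were higher by adjusted p alone, while HIST1H2BH and HIST1H4C did not pass. The parts of the annotation and of the level were not tested. HIST1H2AG, HIST1H2AE and HIST1H2BK were called higher with no transcript annotated past the stem-loop, and of these only HIST1H2BK is on the list. HIST1H1C, also on the list, has no such transcript annotated either.

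**Figure D3:**
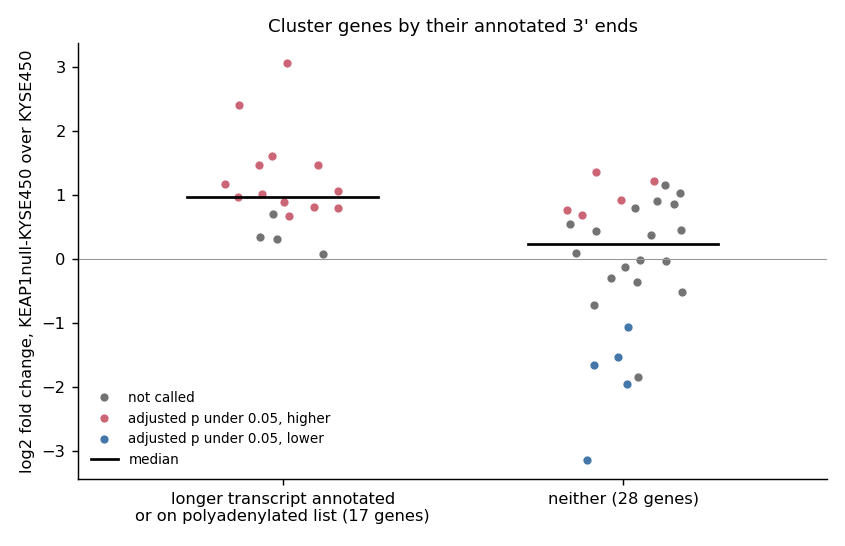
Log2 fold change of KEAP1null-KYSE450 over KYSE450 for the 17 tested cluster genes with an annotated transcript past the stem-loop or on the polyadenylated list and the 28 with neither; each point is a gene, coloured by its call at an adjusted p under 0.05, and the bar is the median. The first column lies wholly above 0 and holds 13 higher genes, and the second spreads to both sides with 5 higher and 5 lower.

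As summed levels, the 20 coding genes of the list or annotation had 4518, 4546 and 4286 normalized counts in KYSE450 and 9134, 10567 and 9727 in KEAP1null-KYSE450, a ratio of means of 2.20. The other 51 had 1858, 2085 and 2393 in KYSE450 and 2807, 3298 and 3279 in KEAP1null-KYSE450, a ratio of 1.48. Both sums were higher in every KEAP1null-KYSE450 library than in any KYSE450 library. How RNA with and without a poly(A) tail was selected for these libraries is not given in the sources used here. Of 8 RNAs without a poly(A) tail that were listed for comparison, RN7SK, RMRP, RPPH1 and SCARNA2 were at 0 in all libraries. RN7SL1 and RN7SL2, copies of the RNA of the signal recognition particle, rose by 0.75 and 1.02 on the log2 scale (adjusted p = 0.00052 and 6.15e-05). SNORD3A, the third of the list that reached the level for testing, did not pass (log2 fold change 0.057, adjusted p = 0.92), and TERC was under that level. MALAT1, a nuclear RNA outside the list whose 3′ end is a triple helix in place of a poly(A) tail, had 7080, 7158 and 8312 normalized counts in KYSE450 and 15801, 24883 and 26963 in KEAP1null-KYSE450 (log2 fold change 1.55, SE 0.16, adjusted p = 9.68e-06). RN7SL1, RN7SL2 and MALAT1 thus moved in the direction of the histone sums and SNORD3A did not pass, and whether RNA selection had a part in the histone result was not tested.

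H2A and H2B genes often lie head to head and share the stretch between their starts. Of 12 such pairs, with 194 to 251 bases between starts, both genes were tested in 8. By adjusted p alone, 3 pairs had both genes higher, 3 had one higher and the other not called, 1 had one higher and the other lower, and 1 had neither called. Of all single genes tested, 24.3% were higher and 25.5% lower by adjusted p alone. The pairs with both higher include HIST3H2A and HIST3H2BB, and HIST3H2BB passed the filter only through KEAP1null-KYSE450. In the pair with neither called, HIST1H2AJ and HIST1H2BM, the log2 fold changes were -0.52 and -1.84 at low counts. The sequences of 3 promoters are shown, for the pair called in opposite directions by adjusted p, for HIST1H2AG, whose partner did not pass the test, and for HIST1H2BK, whose partner was under the level for testing. They are taken from RefSeq (250 bases before to 50 after the start, identical to hg38). Capitals mark the octamer ATTTGCAT, the letters CCAAT and the letters TATAAA on either strand.
HIST2H2BE, facing HIST2H2AC (chr1:149886633-149886932, minus strand): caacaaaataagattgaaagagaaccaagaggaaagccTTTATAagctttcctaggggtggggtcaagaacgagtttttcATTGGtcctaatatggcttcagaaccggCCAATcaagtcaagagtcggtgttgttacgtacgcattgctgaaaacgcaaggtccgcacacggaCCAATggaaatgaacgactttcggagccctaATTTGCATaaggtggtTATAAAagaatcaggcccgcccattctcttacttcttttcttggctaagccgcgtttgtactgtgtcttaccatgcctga
HIST1H2AG, facing HIST1H2BJ (chr6:27132793-27133092, plus strand): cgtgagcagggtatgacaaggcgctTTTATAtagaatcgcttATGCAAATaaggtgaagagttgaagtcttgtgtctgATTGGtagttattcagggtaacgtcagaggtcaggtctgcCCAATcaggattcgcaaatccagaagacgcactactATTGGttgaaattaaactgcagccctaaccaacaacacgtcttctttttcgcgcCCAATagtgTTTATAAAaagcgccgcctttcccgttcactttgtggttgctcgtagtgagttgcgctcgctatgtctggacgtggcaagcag
HIST1H2BK, facing HIST1H2AH (chr6:27146809-27147108, minus strand): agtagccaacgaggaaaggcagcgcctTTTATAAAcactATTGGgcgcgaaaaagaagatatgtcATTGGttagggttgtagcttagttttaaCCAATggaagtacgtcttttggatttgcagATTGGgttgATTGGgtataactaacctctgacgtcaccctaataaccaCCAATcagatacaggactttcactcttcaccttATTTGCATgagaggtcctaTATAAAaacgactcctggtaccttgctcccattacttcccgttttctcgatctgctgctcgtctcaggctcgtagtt

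HIST2H2BE rose while HIST2H2AC, which starts 236 bases away, fell. The HIST2H2BE count per HIST2H2AC count was 2.64, 3.21 and 1.68 in KYSE450 and 8.04, 12.4 and 15.3 in KEAP1null-KYSE450, without overlap. HIST1H2AG rose beside HIST1H2BJ, which did not pass the test. The HIST1H2BJ count per HIST1H2AG count was 0.237, 0.218 and 0.188 in KYSE450 and 0.0863, 0.0783 and 0.102 in KEAP1null-KYSE450. The groups did not overlap for this ratio either. These ratios are not corrected for gene length, so they can be read between libraries but not as relative amounts of the mRNAs. HIST1H2AH, which faces HIST1H2BK, was under the level for testing, with 16, 14.2 and 7.46 in KYSE450 and 9.23, 1.02 and 3.03 in KEAP1null-KYSE450, overlapping. HIST3H2A and HIST3H2BB, 230 bases apart, were both higher. HIST3H2BB was near the floor in KYSE450 and was tested only because of its counts in KEAP1null-KYSE450, so little weight rests on this pair.

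**Figure D4:**
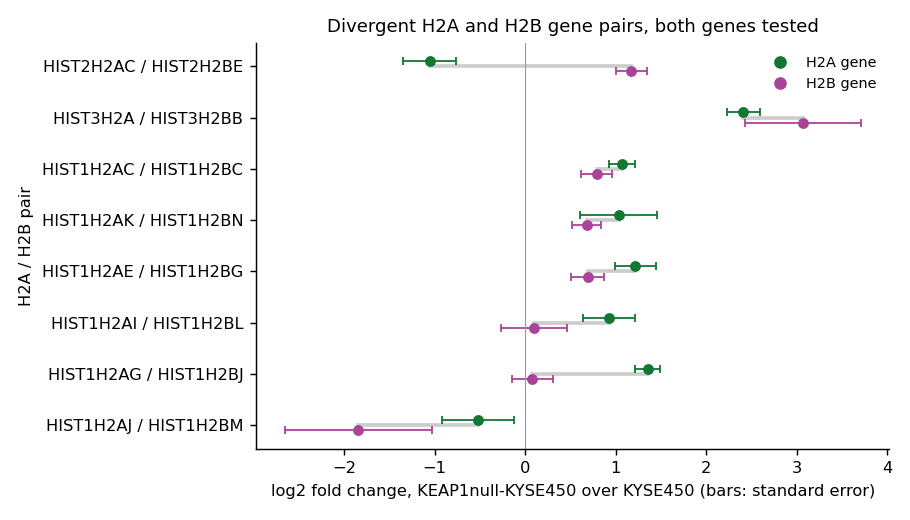
Log2 fold change of KEAP1null-KYSE450 over KYSE450 with its standard error for both genes of the 8 head-to-head H2A and H2B pairs that could be tested, ordered by the difference within the pair. HIST2H2AC and HIST2H2BE lie on opposite sides of 0, and HIST1H2AG stands at 1.35 beside HIST1H2BJ at 0.079. HIST3H2A and HIST3H2BB are both above 2, with HIST3H2BB near the floor in KYSE450.

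In the RefSeq promoters of the coding members, 73 of which were in the table, the octamer ATTTGCAT was in 11 of 16 H2A and 14 of 18 H2B promoters (68.8% and 77.8%), in 1 of 13 H3 promoters and in none of 6 H1 or 13 H4 promoters, against 1.8% of all 27305 promoters. CCAAT was in all H1, H2A, H2B and H3 promoters and in 23.1% of H4 promoters, against 35.7% overall. TATAAA was in 50.0% to 76.9% of the promoters of each cluster family, against 12%. Among tested H2A and H2B genes, 8 of 18 with the octamer and 4 of 7 without it were higher by adjusted p alone, beside 24.3% of all genes tested. Only 1 was lower, with the octamer, so these genes cannot show whether the match goes with direction. Head-to-head partners share the stretch between their starts, so a match there can count for both genes. The core letters of the antioxidant response element bound by NRF2 are TGACNNNGC. They were in 1 of 6 H1, 4 of 16 H2A, 2 of 18 H2B, 0 of 13 H3 and 1 of 13 H4 promoters, against 13.6% of all promoters. Of the 5 tested cluster genes with this match, HIST1H2AG, HIST1H2AK, HIST1H2BJ, HIST1H2BN and HIST1H4H, 3 were higher by adjusted p alone. Without the match it was 15 of 36, beside 24.3% of all genes tested. HIST1H2AG with HIST1H2BJ, and HIST1H2AK with HIST1H2BN, are head-to-head pairs with overlapping promoter windows, so they are not separate promoters. All matches count both strands and are letters only.

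The genes outside the clusters had a different profile, with more counts (not corrected for gene length) and, H1F0 apart, log2 fold changes under 1 in size. H1F0, a linker histone known to accumulate in cells that stop dividing, had 7838, 7390 and 6061 normalized counts in KYSE450 and 3600, 3328 and 3133 in KEAP1null-KYSE450. It was 2.12-fold lower (log2 fold change -1.07, SE 0.11, adjusted p = 7.13e-06), and its groups stood well apart. Over the alternative settings the log2 fold change lay between -1.18 and -0.92, and it stood just under the fold needed without KYSE450 library 1 (-0.9989), with quantile normalization (-0.92), by edgeR (-0.97) and by DESeq2 (-0.9984). H2AFY, which encodes the macroH2A variant of silenced chromatin, had 13033, 13680 and 14142 in KYSE450 and 8782, 8697 and 8948 in KEAP1null-KYSE450, and fell by 0.63 on the log2 scale (SE 0.086, adjusted p = 7.78e-05). Its groups did not overlap either.

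H3F3A and H3F3B encode the same replacement H3 protein from separate loci, and moved in opposite directions. H3F3A had 11063, 12348 and 12420 normalized counts in KYSE450 and 13895, 15489 and 15771 in KEAP1null-KYSE450, and rose by 0.33 on the log2 scale (SE 0.095, adjusted p = 0.011). H3F3B had 26384, 26157 and 27035 in KYSE450 and 20990, 20501 and 20958 in KEAP1null-KYSE450, and fell by 0.35 on the log2 scale (SE 0.088, adjusted p = 0.0056). The H3F3A count per H3F3B count was 0.419, 0.472 and 0.459 in KYSE450 and 0.662, 0.756 and 0.753 in KEAP1null-KYSE450, without overlap. Summed over both genes, the mean was 38469 normalized counts in KYSE450 and 35868 in KEAP1null-KYSE450, a log2 fold change of -0.10 (SE 0.093, adjusted p = 0.39). On the recovered reads of 4 libraries the fold changes were alike but did not pass (adjusted p = 0.13 by edgeR and 0.12 by DESeq2 for H3F3A, 0.17 and 0.063 for H3F3B), and with quantile normalization H3F3B stood at -0.14 (adjusted p = 0.18).

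H2AFX, the H2A variant phosphorylated at DNA breaks, had 10355, 10852 and 10308 normalized counts against 9641, 9678 and 11191. H2AFZ, the variant found at promoters, had 19538, 23085 and 24680 against 19647, 22237 and 24305, and its close relative H2AFV had 11241, 12236 and 12318 against 11708, 11981 and 12274. H1FX had 5486, 6190 and 4600 against 4512, 5040 and 5955. All 4 had overlapping groups and log2 fold changes between -0.069 and 0.0077, with standard errors from 0.088 to 0.13, and did not pass the test. The sign of each of the 4 changed under at least 1 other setting.

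**Figure D5:**
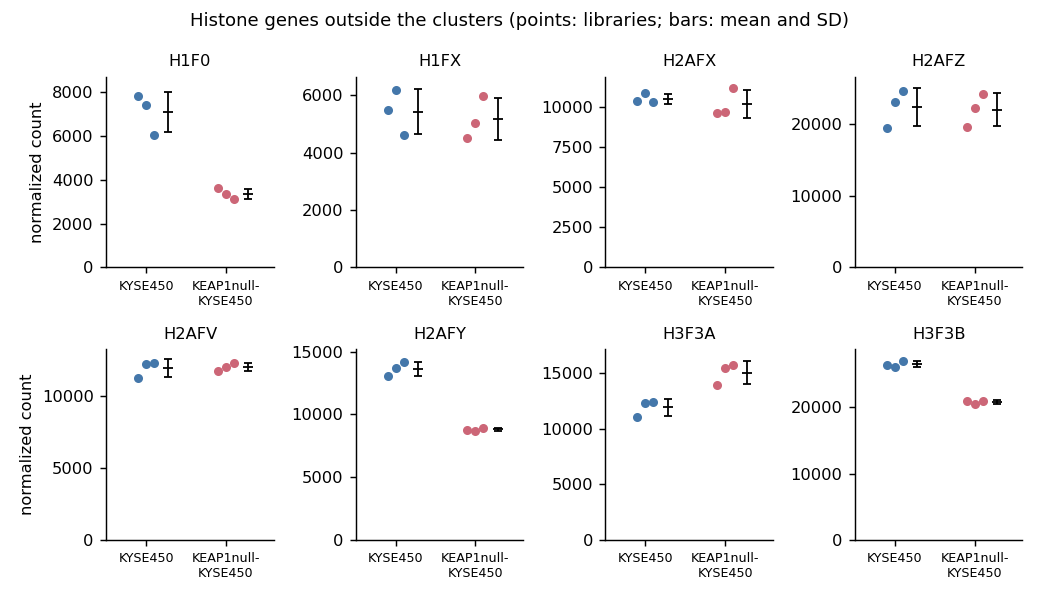
Normalized counts of the 8 histone genes outside the clusters, with a point per library and bars for the mean and SD (n = 3 per line), each panel starting at 0. H1F0, H2AFY and H3F3B are lower and H3F3A higher in KEAP1null-KYSE450 without overlap, and the other 4 overlap.

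Of 14 genes listed that transcribe and process histone mRNAs, 1 was higher and 9 lower by adjusted p alone, beside 24.3% and 25.5% of all genes, and none reached the fold needed for a call. The higher one was HINFP, which drives H4 gene transcription and rose by 0.44 on the log2 scale (adjusted p = 0.0031). On the recovered reads of 4 libraries edgeR called 1 of them lower and DESeq2 3. Their median log2 fold change was -0.35. Of the 7 with a mean of at least 2000, 5 were lower by adjusted p alone, beside 39.6% of all tested genes at that level. SLBP, which binds the stem-loop, had 6038, 6786 and 7482 normalized counts in KYSE450 and 5367, 5837 and 6045 in KEAP1null-KYSE450. Its groups overlapped by a narrow margin and it did not pass the test (log2 fold change -0.23, SE 0.10, adjusted p = 0.076). NPAT, the cyclin E-CDK2 substrate that drives transcription of the clusters, had 1121, 1110 and 1074 against 1285, 1158 and 1080, overlapping, with a log2 fold change of 0.089 (SE 0.11, adjusted p = 0.52). Of 20 histone chaperones listed, 1 was higher and 10 lower by adjusted p alone. Those 10 are among the 18 with a mean of at least 2000, where 39.6% of all tested genes were lower and 14.3% higher. ASF1A, which hands H3 and H4 to assembly factors, had 2374, 2912 and 3407 in KYSE450 and 6552, 7258 and 7874 in KEAP1null-KYSE450, a log2 fold change of 1.33 (SE 0.13, adjusted p = 3.95e-06). ANP32E, which removes the variant encoded by H2AFZ from chromatin, had 12806, 11726 and 11745 against 5295, 4425 and 4412, a log2 fold change of -1.36 (SE 0.10, adjusted p = 3.31e-07).

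Most of the S phase and mitosis genes listed were lower in KEAP1null-KYSE450. Of 18 S phase genes, 15 were lower by limma's adjusted p alone and 0 higher at an unadjusted p under 0.05, by edgeR or by DESeq2, with a median log2 fold change of -0.56. These genes have many counts: of the 15 with a mean of at least 2000, 13 were lower, and at that level 39.6% of all tested genes were lower and 14.3% higher. RRM1, a subunit of ribonucleotide reductase, was the only one past both thresholds, with 26370, 25964 and 25638 normalized counts in KYSE450 and 13804, 11864 and 11722 in KEAP1null-KYSE450 (log2 fold change -1.06, SE 0.096), though under the fold needed with quantile normalization (-0.86) and by edgeR (-0.985). Of 8 mitosis genes, 7 were lower and 0 higher by the same tests of limma, with MKI67 at -1.09 and PLK1 at -1.12 past both thresholds; MKI67 was under the fold needed without KYSE450 library 1 (-0.92), and with quantile normalization both were (-0.90 and -0.94). The part of a different cell cycle distribution in the histone levels was not tested.

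Genes that are not histones but lie among or beside them differed from locus to locus, to be read against 24.3% higher and 25.5% lower of all tested genes. In the large cluster on chromosome 6 (chr6:25723397-27893891), 24 other genes were tested, of which 1 was higher and 14 lower by adjusted p alone, with a median log2 fold change of -0.39. The 38 tested coding histone genes of that cluster had 13 higher and 4 lower, with a median of 0.61. In the flanks of 1 Mb on either side, 5 of 22 tested genes were higher and 10 lower, with a median of -0.29. Inside the HIST2 cluster on chromosome 1, where HIST2H2BE and HIST2H2AC lie, 2 of 3 tested genes were higher and 0 lower (by an unadjusted p under 0.05, edgeR or DESeq2 too), with a median of 0.89, whereas in its flanks 0 of 27 were higher by adjusted p (1 by unadjusted p, 0 by edgeR or DESeq2) and 19 lower, with a median of -0.51. HIST3H2A and HIST3H2BB, both above 2 on the log2 scale though HIST3H2BB was near the floor in KYSE450, had 21 tested neighbours within 1 Mb. Of these neighbours, 6 were higher and 4 lower, with a median of 0.072. HIST4H4, at 0.97, had 11 tested neighbours within 1 Mb, of which 6 were higher and 2 lower, with a median of 0.71.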

How the data were processed

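Per the labels and methods, the authors aligned reads to hg38 with STAR (2.6.90c) after cutadapt (1.12), counted them per gene with featureCounts (1.5.1) and deposited a normalized signal per gene and library, that is, counts divided by size factors. The rows carry Ensembl identifiers where the methods name RefSeq, so how far past the stem-loop reads were counted is not given in the sources used here. For 4 of the 6 libraries 100% of the values gave whole reads, 53027359 to 61543442 per library. A gene was tested with limma (3.58.1, R 4.3.3; lmFit, eBayes with trend) on log2 of the value plus a pseudocount of 1, so fold changes of low genes are understated, where its mean was at least 10, with Benjamini-Hochberg adjustment over 16701 genes and two-sided tests. Genes were called at an adjusted p under 0.05 and a log2 fold change of at least 1. edgeR (4.0.16) and DESeq2 (1.42.0) used those 4 libraries only. On simulated counts for this comparison limma recovered 200 of 200 changed genes with 0 false calls among 16718. The changed genes were drawn from those with a mean of at least 100, and the raised ones had a median log2 fold change of 2.02. Recovery of genes with fewer counts or smaller fold changes was not tested in this way.

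Members were matched to gencode v44 by Ensembl identifier (85) or through a RefSeq synonym (6). Histone pseudogenes, genes whose windows of 100 bases recur in other members, and genes listed at 0 are described after the main results. Genes named were, in each family, up to 5 called in each direction and the 3 with the highest mean, every gene outside the clusters, the 3 highest of the polyadenylated list, SLBP, NPAT and up to 3 called genes of each other list in each direction; HIST1H2BJ, HIST1H2AH, HIST1H2AJ, HIST1H2BM, HIST1H2AM, HINFP, RN7SL1, SNORD3A, MALAT1, the markers of other cell types and 5 genes higher by adjusted p alone were chosen after their values were seen. The members and lists were chosen with earlier results of these data known.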

Additional observations from a re-analysis of the deposited data

How the results depend on the processing

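No paired analysis was possible because the columns carry no replicate number. Of the 10 histone genes called higher, 8 to 10 were also called by edgeR, by DESeq2, with each library left out, with quantile normalization or equal totals, without the trend, at pseudocounts of 0.1 and 10, and with no filter or a minimum mean of 100. A test against a fold change of 2 called 2 higher and 0 lower, and adjusted p alone 20 higher. The 6 genes called lower depended more on the processing: 1 remained with a mean of at least 100, and on recovered reads DESeq2 called 2 genes lower, of which 1 was among the 6, and edgeR 4, of which 3 were. Leaving out libraries gave 2 to 6 called lower, the 2 without KYSE450 library 1. The others were mostly genes with few reads, and depth limits them. Leaving out libraries gave 9 to 13 called higher.

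Over all genes, a mean of at least 100 called 875 higher; adjusted p alone called 4060 higher and 4251 lower; a test against a fold change of 2 called 626 and 395. Of the genes named, 10 that were not called changed sign. HIST1H2BJ was -0.28 with quantile normalization, -0.10 with edgeR, -0.13 with DESeq2 and -0.069 to 0.18 with a library left out. H2AFZ was 0.0095 with the same total, 0.18 with quantile normalization and -0.12 to 0.058 with a library left out. Quantile normalization also gave 0.082 for H1FX, 0.15 for H2AFX and 0.14 for KEAP1, and rescaling to the same total gave 0.013 for HIST1H4C and 0.016 for KEAP1. With a library left out, H2AFV lay between -0.035 and 0.031, H1FX between -0.18 and 0.032, HIST1H4C between -0.20 and 0.29, and KEAP1 between -0.073 and 0.040. HIST1H2APS4 was -0.35 with quantile normalization, -0.069 with edgeR, -0.094 with DESeq2 and -0.031 to 0.41 with a library left out. SNORD3A was -0.44 with quantile normalization and -0.31 to 0.41 with a library left out, and VWF was -0.22 with quantile normalization.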

Other observations

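Of the 12 annotated histone pseudogenes among the members, 8 were listed at 0 in all libraries, 2 were under the level for testing and 2 were tested. HIST2H2BD, a transcribed H2B pseudogene in the chromosome 1 cluster (chr1:149843041-149843533), had 301, 270 and 291 normalized counts in KYSE450 and 605, 588 and 532 in KEAP1null-KYSE450. It rose by 0.9989 on the log2 scale (SE 0.13, adjusted p = 6.77e-05 by limma), just short of the fold needed for a call, and its groups did not overlap. HIST1H2APS4, with 34.2, 29.3 and 47.6 against 49.8, 26.5 and 47.4, had overlapping groups and did not pass the test.

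Among the coding cluster genes, 17 were under the level for testing and 9 were listed at 0 in all libraries: HIST1H1T, HIST1H2AA, HIST1H2AD, HIST1H2BA, HIST1H3D, HIST2H3PS2, HIST3H3, HIST1H4F and HIST1H4G. HIST1H1T, HIST1H2AA and HIST1H2BA are known as testis histones. HIST1H2AD and HIST1H3D share exons with AL031777.3, a separate row with 13.9, 20.2 and 18.6 normalized counts in KYSE450 and 9.23, 37.7 and 32.3 in KEAP1null-KYSE450, and how shared reads were assigned was not tested. Near-identical copies such as HIST2H2AA3 and HIST2H2AA4, or HIST2H3A and HIST2H3C, hold 0.9% or less of windows not found in another member, and their values of at most 6.12 are uncertain for that reason. Some genes under the level for testing had groups that did not overlap, on few reads and with no test: HIST1H3F had 17.1, 17.2 and 15.9 in KYSE450 and 0, 4.08 and 5.04 in KEAP1null-KYSE450, and HIST1H2AB had 1.07, 2.02 and 3.73 against 12, 10.2 and 7.06.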
